A study of Mus musculus with 3 samples.

Results

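The 10 genes examined here encode proteins of 2 inflammatory forms of cell death, pyroptosis and necroptosis. They were chosen by name and matched by Ensembl ID among the 52948 gene IDs measured in RNA of αTC1-6, a line of glucagon-producing mouse cells established from a pancreatic α-cell tumour. The cells had been infected for 16 h with an adenovirus for β-galactosidase (β-Gal, the control), for NIK, the product of Map3k14 and a kinase upstream of NF-κB, or for NIK(KA). NIK(KA) is known elsewhere as NIK with a disabled kinase domain, but the labels do not define it. All 3 groups thus carried a virus, uninfected cells were not analysed here, and each group was 1 library of 1 cell line. Differences below are between single libraries, with no replicate check and no p-value.

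In pyroptosis, a sensor such as NLRP3 gathers the adaptor ASC, encoded by Pycard, and activates caspase-1, which cuts the precursors of interleukin-1β and interleukin-18. Caspase-11, the product of mouse Casp4, instead recognises bacterial lipopolysaccharide in the cytosol. Both caspases cut gasdermin D (Gsdmd), whose released fragment forms pores in the plasma membrane. In necroptosis, the kinases RIPK1 and RIPK3 join through a shared motif and RIPK3 then phosphorylates the pseudokinase MLKL, which disrupts the membrane. Caspase-8 holds necroptosis in check by cutting these kinases.

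The NIK library alone held transcripts of the 3 inflammatory caspases in more than single reads, and Casp4 was by far the most abundant of them. Nlrp3 and Gsdmd were higher in NIK as well. Il18 and Ripk3 had no read in any library, whereas Ripk1 and Mlkl were present in every library at levels that differed by less than 2-fold. Of the 10 genes, the β-Gal library held 5, NIK 8 and NIK(KA) 6.

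Casp1, Casp4 and Casp12 lie side by side on the plus strand of chromosome 9 (GRCm38), within 74516 bases from 5298517 to 5373032. No other protein-coding gene overlaps the window that reaches 500000 bases to either side. Bases before the RefSeq transcription starts (GRCm38.p6) are shown for these neighbours and for Nlrp3. All 4 had at most 1 read in β-Gal and in NIK(KA) and more in NIK. For Nlrp3 only the RefSeq start with a match is shown. The stretches stop before the first annotated exon. Capitals mark matches to the κB motif, which NF-κB dimers recognise, in Casp4 and Nlrp3, and to the GAS motif TTCNNNGAA, which STAT dimers recognise, in Casp12.

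Casp1, chr9:5298267-5298516, plus strand: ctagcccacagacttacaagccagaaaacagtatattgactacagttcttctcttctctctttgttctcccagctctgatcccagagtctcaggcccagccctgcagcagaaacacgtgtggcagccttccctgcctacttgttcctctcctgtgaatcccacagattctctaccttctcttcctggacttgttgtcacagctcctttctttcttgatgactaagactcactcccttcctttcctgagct
Casp4, chr9:5308599-5308827, plus strand: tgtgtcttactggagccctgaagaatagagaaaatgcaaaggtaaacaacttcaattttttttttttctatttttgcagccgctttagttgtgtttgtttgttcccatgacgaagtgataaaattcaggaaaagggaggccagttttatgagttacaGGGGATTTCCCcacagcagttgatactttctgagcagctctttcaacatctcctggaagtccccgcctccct
Casp12, chr9:5345226-5345429, plus strand: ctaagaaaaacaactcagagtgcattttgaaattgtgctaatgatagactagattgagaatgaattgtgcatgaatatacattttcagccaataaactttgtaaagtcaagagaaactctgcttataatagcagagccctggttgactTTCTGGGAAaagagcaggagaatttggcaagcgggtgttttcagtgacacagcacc
Nlrp3, chr11:59541319-59541567, plus strand: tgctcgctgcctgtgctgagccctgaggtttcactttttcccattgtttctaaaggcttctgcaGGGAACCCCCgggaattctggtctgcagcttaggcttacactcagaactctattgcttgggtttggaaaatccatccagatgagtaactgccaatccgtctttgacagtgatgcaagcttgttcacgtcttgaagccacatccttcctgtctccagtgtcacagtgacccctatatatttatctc

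In all, 9 of the 10 genes matched 12 RefSeq promoters, and 250 bases before each start were searched on both strands. Gsdmd had no RefSeq promoter available and was not searched. The κB motif was found for 2 of the genes, Casp4 and Nlrp3. In Casp4 the capitals hold 2 overlapping matches, which begin 93 and 92 bases before the start at 5308849. A further RefSeq start of Casp4, at 5308860, has the same matches in its window. In Nlrp3 the match begins 186 bases before the start at 59541569 and lies on the minus strand, and the window of the other RefSeq start of Nlrp3, at 59542686, held none. Of all 32851 promoters of the same length, 3.90% held the κB motif, and of the 12 promoters here 3 did. Counted by gene, the share was 4.46% of 27025 genes. The interferon response motif, GAAA followed by any 2 bases and GAAA, was in 2.98% of all promoters and in none of the 12 promoters here. The GAS motif was in 7.02% of all promoters and in those of Casp12 and of 1 of the RefSeq starts of Ripk1, at 34002874, whose window overlaps annotated exons. The window of the other Ripk1 start, at 34002363, held none. The second copy of GAS in Casp12, 36 bases before the start, lies in an annotated exon and is not shown. These matches are letters in a window and do not show binding.

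Depth was similar, with 18629668 counted reads behind the β-Gal values, 15523580 for NIK and 16652922 for NIK(KA). Levels are the deposited FPKM, that is fragments scaled to gene length and library depth, and are given with the whole reads recovered from them. Map3k14 stood at 5.35 FPKM in the control, 8.42 with NIK and 12.1 with NIK(KA), so each virus for a form of NIK went with more of its transcript. All 12 α-cell markers were detected, with Gcg at 12093, 6955 and 10197 FPKM. As a set they were lower in NIK. Their median difference of log2(FPKM + 1) was -0.75 in NIK against β-Gal, beside -0.02 over all genes averaging 1 FPKM or more. In NIK(KA) against β-Gal it was -0.05 beside 0.01. The β-Gal library stood apart through Smoc2 and heart muscle genes: Smoc2 had 74005, 7 and 4 reads and Myl2 had 89, 0 and 0. The liver gene Alb had 18, 6 and 75 reads and stood 4.66-fold above the control in NIK(KA) (2.76 to 8.29). None of the 10 genes was higher in β-Gal than in NIK. The 17 markers of macrophages and other leukocytes, cells rich in inflammasome proteins, summed to 5.67, 7.73 and 5.49 FPKM, in the order β-Gal, NIK and NIK(KA). Of these, 3 had no read in any library. Most of the sum came from Cd68, at 2.43, 3.12 and 1.52 FPKM, Cd14, at 1.06, 2.21 and 1.07, and Fcer1g, at 1.69, 1.35 and 1.78. Cd14 was 2.09-fold higher in NIK than the control (1.32 to 3.36). Ptprc, the pan-leukocyte gene, had 0, 0 and 1 reads and Adgre1, which marks macrophages, had 0, 7 and 1. The part of such cells in the results was not tested. Of 6 genes of other islet cells, 5 had no read in any library. The 7 markers of endothelium and stroma summed to 3.39, 1.59 and 2.38 FPKM in the same order. Of the 4 of duct and acinus, Sox9 was at 3.15, 8.69 and 2.63 FPKM, Krt19 had no read in any library, and Cpa1 and Prss2 had none in β-Gal or NIK and 2 and 1 in NIK(KA).

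Casp4 had 0 reads with β-Gal, 443 with NIK and 1 with NIK(KA), or 0, 27.4 and 0.0576 FPKM. It was thus found almost entirely in NIK. With 3 reads in place of 0, it was at least 177-fold higher in NIK than the control. Such bounds take the reads in NIK as counted, and the exact 95% lower limit, which includes their error, was 144. Against NIK(KA) the ratio was 475, with an exact 95% interval of 84.9 to 18812 that covers counting error only, as do all intervals here. The difference on the log2(FPKM + 1) scale was 4.83 against β-Gal, which placed Casp4 at rank 20 of the 12950 genes whose FPKM averaged 1 or more. In the NIK library its level exceeded that of 67.2% of the detected protein-coding genes. The coding genes with the most similar levels, by Euclidean distance in log2(FPKM + 1) over the 3 libraries and among 11149 genes, were Lcn2 (distance 0.20), Vcam1 (0.21) and Ccl2 (0.23).

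Casp1, the caspase of the canonical inflammasome, had 0 reads with β-Gal, 18 with NIK and 0 with NIK(KA). Its level in NIK was 0.775 FPKM, at least 7.20-fold above the control and at least 6.44-fold higher than in NIK(KA). Casp12, a caspase placed at the endoplasmic reticulum and studied in stress of that compartment, had 0, 10 and 0 reads. Its level in NIK was 0.358 FPKM, at least 4.0-fold above the control and at least 3.58-fold higher than in NIK(KA). The exact lower limits against β-Gal and NIK(KA) were 5.28 and 4.72 for Casp1, and 2.69 and 2.40 for Casp12. All 3 neighbouring genes were therefore detected in NIK, but at very unequal levels. Per length, Casp4 was 35.3-fold above Casp1 (22.1 to 60.2) and 76.3-fold above Casp12 (41.1 to 160). Casp1 and Casp12 differed by a ratio of 2.16 with an interval of 0.946 to 5.24, which includes 1.

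**Figure D1:**
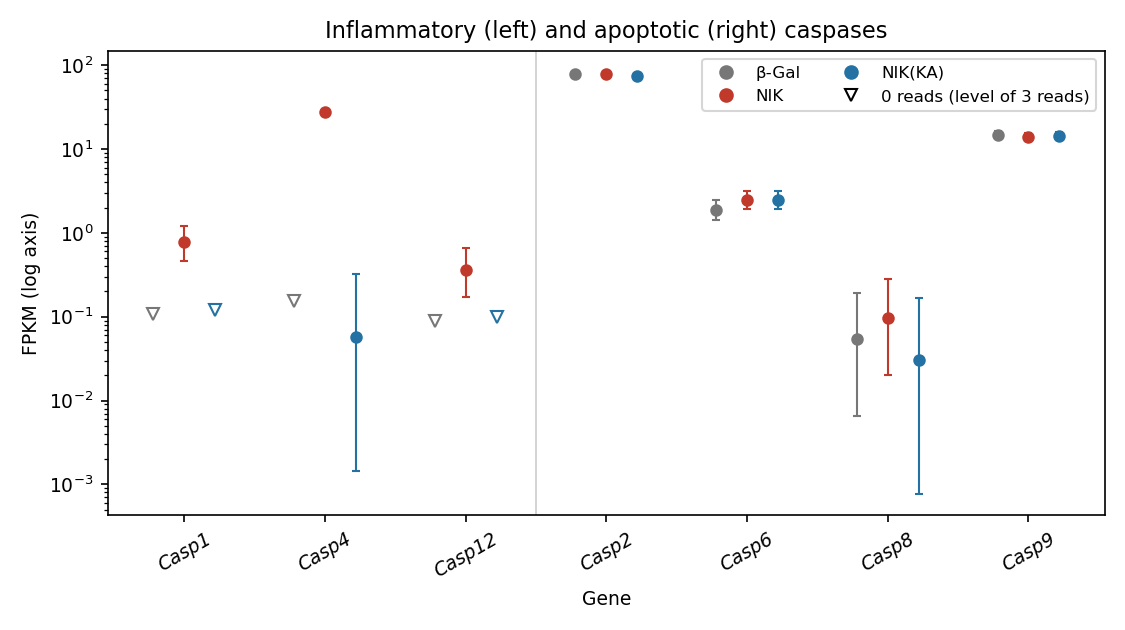
FPKM on a log axis of the inflammatory caspases Casp1, Casp4 and Casp12 and of the apoptotic caspases Casp2, Casp6, Casp8 and Casp9, with 1 point per library and exact 95% Poisson intervals for counting error. Open triangles stand for 0 reads and are drawn at the level of 3 reads. Casp4 in NIK, at 27.4 FPKM, lies above Casp9 in NIK, at 14.0, and far above Casp8, at 0.0969.

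Of the apoptotic caspases, Casp2, Casp6 and Casp9 were already present in the control. Casp2, an initiator linked to DNA damage, was at 79.6, 78.8 and 73.7 FPKM in β-Gal, NIK and NIK(KA), and Casp9, the initiator of the mitochondrial pathway, at 14.8, 14.0 and 14.3. Casp6 was lower, at 1.88, 2.49 and 2.47 FPKM. Their ratios of NIK to the control were 0.990, 0.945 and 1.33, in the same order of genes, and the interval of each included 1. The gene of caspase-8, which restrains necroptosis, was close to absent, with 2, 3 and 1 reads.

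Nlrp3, the inflammasome sensor, lies on chromosome 11 from 59541568 to 59566956 and had 1 read with β-Gal, 96 with NIK and 1 with NIK(KA). These are 0.0187, 2.15 and 0.0209 FPKM, so NIK stood alone and the other libraries were at the level of a single read. The ratio was 115 against β-Gal (20.2 to 4597) and 103 against NIK(KA) (18.0 to 4109). Pycard, which encodes the adaptor that links NLRP3 to caspase-1, followed another order. On the minus strand of chromosome 7 from 127989708 to 127993867, it had 9, 16 and 25 reads, or 0.225, 0.480 and 0.699 FPKM, and was highest in NIK(KA). Its ratio of 2.13 between NIK and β-Gal had an interval of 0.888 to 5.48, which includes 1. In NIK(KA) it was 3.11-fold above the control (1.40 to 7.57). That library also had the most Alb reads, and a link between the genes was not tested. Gm45205, an annotated transcript on the opposite strand that overlaps Pycard, had 5, 3 and 8 reads. As the strand setting of the counting is not given, reads from the shared bases, 127993269 to 127993867, cannot be told apart.

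Gsdmd, the pore-forming substrate of both caspases, lies on chromosome 15 from 75862327 to 75867408. It had 4 reads with β-Gal, 42 with NIK and 1 with NIK(KA), the fewest whole reads that its values allow, or 0.121, 1.52 and 0.0338 FPKM. NIK was again the high library. The ratio was 12.6 against β-Gal (4.57 to 48.4) and 45.1 against NIK(KA) (7.66 to 1821). Il18, on chromosome 9 from 50554827 to 50581840, encodes the cytokine precursor that caspase-1 matures and had 0 reads in each library. A count of 0 allows up to 3 reads, which would be 0.205, 0.246 and 0.229 FPKM in the same order of libraries.

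Among the necroptosis genes, the effector and the upstream kinase were expressed but the kinase between them was not detected. Mlkl, on chromosome 8 from 111311797 to 111338177, had 831, 1047 and 724 reads in β-Gal, NIK and NIK(KA), or 34.0, 51.4 and 33.1 FPKM. It was the most abundant of the 10 genes in every library. It was 1.51-fold higher in NIK than the control (1.38 to 1.66) and 1.55-fold higher than in NIK(KA) (1.41 to 1.71), with log2 differences of 0.58 and 0.62. Its ratio of NIK(KA) to β-Gal was 0.975 (0.881 to 1.08). Ripk1, on chromosome 13 from 34002363 to 34037147, had 720, 686 and 542 reads, or 13.6, 15.5 and 11.4 FPKM. It was 1.14-fold higher in NIK than the control (1.03 to 1.27) and 1.36-fold higher than in NIK(KA) (1.21 to 1.52). Its ratio between NIK(KA) and β-Gal was 0.842 (0.752 to 0.943). Intervals this narrow exclude 1 in many genes: in NIK against β-Gal they lay above 1 in 26.7% of the 12950 genes and below 1 in 28.2%. The shares were 24.6% and 30.5% in NIK against NIK(KA), and 19.0% and 14.4% in NIK(KA) against β-Gal. Ripk1 overlaps Serpinb6a, a coding gene on the opposite strand with 366, 286 and 318 reads, and Mlkl overlaps the pseudogene Gm45712 with 2, 6 and 3. Reads from bases that overlapping genes share cannot be told apart here either. For Ripk1 and Serpinb6a these bases run only from 34002363 to 34002794. Ripk3, the kinase that phosphorylates MLKL, had 0 reads in each library, so that up to 0.170, 0.204 and 0.190 FPKM could have been missed.

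**Figure D2:**
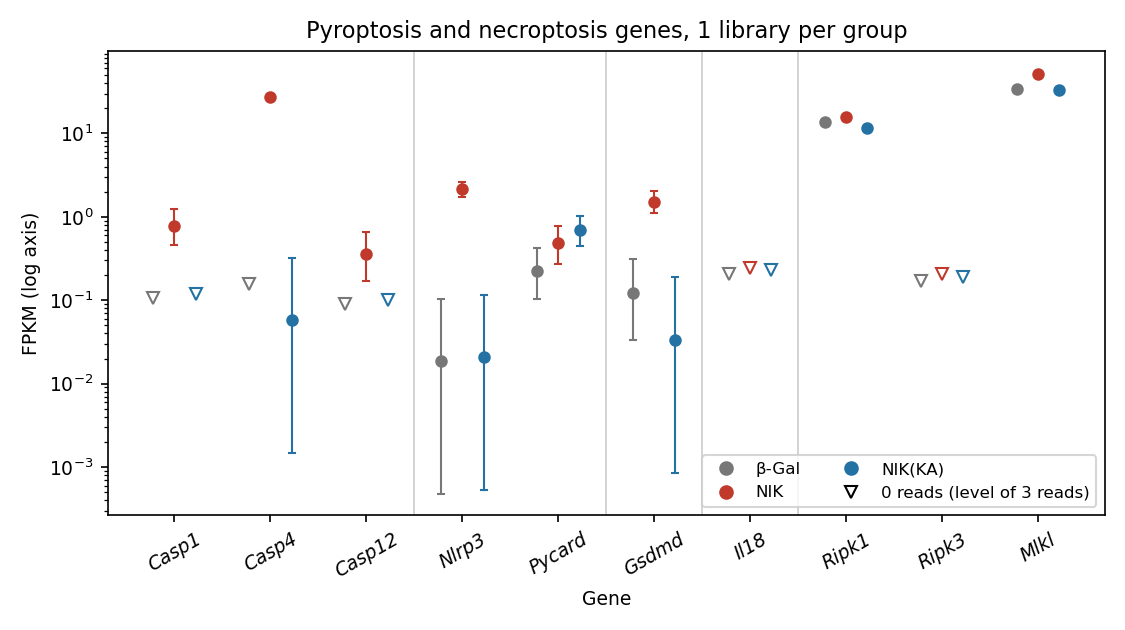
FPKM on a log axis of the 10 genes in the β-Gal, NIK and NIK(KA) libraries, with exact 95% Poisson intervals for counting error, and open triangles at the level of 3 reads where a gene had 0 reads. In NIK, Casp4 stands at 27.4 FPKM, Nlrp3 at 2.15 and Gsdmd at 1.52, while Ripk1 and Mlkl lie close together in the 3 libraries and Il18 and Ripk3 have triangles throughout.

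The order of levels changed with the library. In β-Gal, Mlkl led Ripk1 by 2.5-fold per length (2.26 to 2.77), and Pycard, Gsdmd and Nlrp3 followed far below. Pycard and Gsdmd did not differ beyond counting error there, at a ratio of 1.86 (0.519 to 8.27), nor did Gsdmd and Nlrp3, at 6.48 (0.641 to 319). In NIK, Casp4 stood between Mlkl, which was 1.88-fold above it (1.68 to 2.10), and Ripk1, which it exceeded by 1.76-fold (1.56 to 1.99). Nlrp3 came next, 7.23-fold below Ripk1 (5.83 to 9.05). Nlrp3 and Gsdmd had a ratio of 1.41 (0.972 to 2.08), Casp1 and Pycard of 1.61 (0.777 to 3.38) and Pycard and Casp12 of 1.34 (0.571 to 3.30), each interval including 1. Gsdmd was 1.97-fold above Casp1 (1.11 to 3.63). In NIK(KA), Mlkl led Ripk1 by 2.89-fold (2.58 to 3.24), and Pycard, 16.4-fold below Ripk1 (11.0 to 25.5), was the only other member with more than 1 read.

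A gene was called higher or lower in these data at a log2(FPKM + 1) difference of at least 1, among genes that averaged 1 FPKM or more. Only Casp4, Ripk1 and Mlkl of the 10 genes passed that filter, and Casp4 passed it through NIK alone. Casp4 was called higher in NIK against β-Gal and against NIK(KA), where 5.14% and 5.07% of all genes were called higher. None of the 10 was called lower in either comparison, against 1.48% and 1.10% of all genes. Between NIK(KA) and β-Gal none of the 3 was called in either direction, and neither were most other genes, with 0.263% called higher and 0.417% lower. A rule without the filter, chosen after the values were seen, asked for a ratio of reads of at least 2 with an interval that excludes 1. By this rule Casp1, Casp4, Casp12, Nlrp3 and Gsdmd were higher in NIK than the control and than in NIK(KA), 5 of 10 genes each time, where 6.60% and 5.71% of all detected genes were. None of the 10 was lower by it in any comparison, against 2.18% of detected genes in NIK against β-Gal, 2.48% in NIK against NIK(KA) and 0.874% in NIK(KA) against β-Gal. Between NIK(KA) and β-Gal, Pycard alone met it, where 2.13% of all genes did in that direction. The comparisons share libraries pairwise, so they are not independent.

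**Figure D3:**
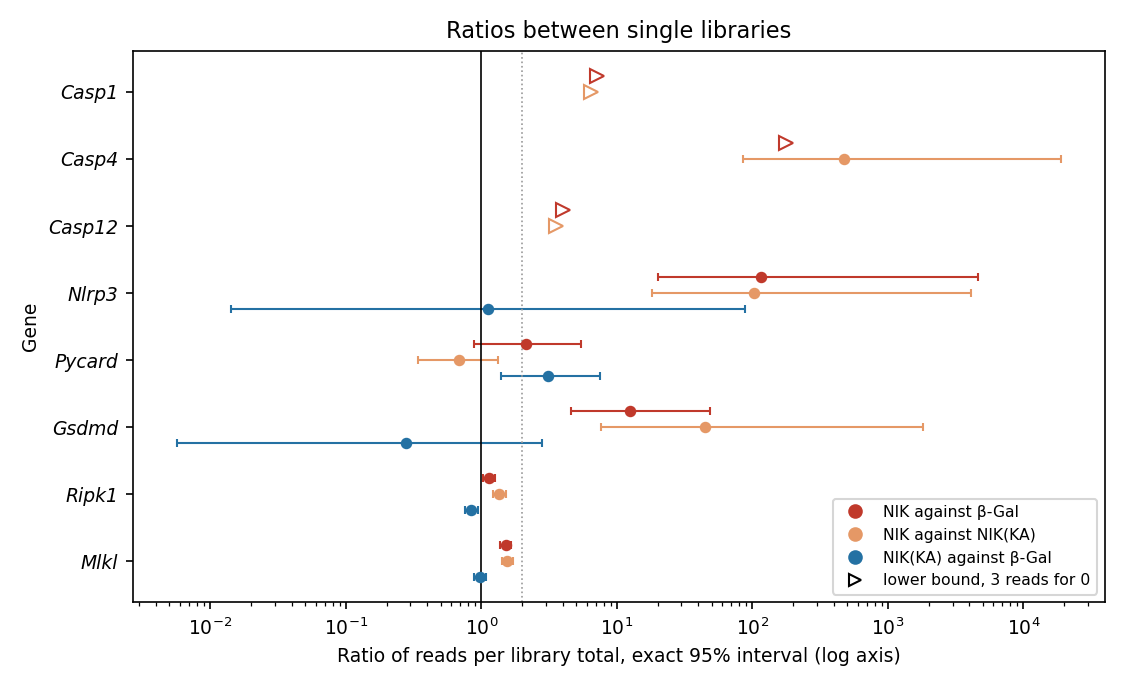
Ratios of reads per library total for the 8 detected genes, on a log axis, with exact 95% intervals. Casp4 in NIK(KA) against β-Gal, with 1 and 0 reads, is not drawn. Arrowheads mark lower bounds, with 3 reads in place of 0, and the lines stand at ratios of 1 and 2. The intervals of Nlrp3 and Gsdmd for NIK against either other library lie above 2, as does that of Casp4 against NIK(KA), whereas those of Ripk1 and Mlkl stay below 2.

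Other genes of the pyroptosis pathway were few and mostly low. Of 48 listed, 13 passed the filter. In NIK against β-Gal 2 of these were called higher and 0 lower, where 5.14% and 1.48% of all 12950 genes were. The median log2 difference of the 13 was 0.08 beside -0.02 over all genes. Il1r2, the decoy receptor that binds interleukin-1 without signalling, was at 4.0, 26.7 and 4.27 FPKM in β-Gal, NIK and NIK(KA), 6.68-fold higher in NIK than the control (5.14 to 8.80). Ripk2, the kinase below the NOD receptors, was at 5.92, 34.5 and 5.33 FPKM, 5.83-fold higher (5.15 to 6.62). Nod1 and Nod2, the bacterial sensors upstream of it, lay under the filter with 8, 25 and 5 reads and with 1, 21 and 0 reads. They are named after their values were seen. Both were higher in NIK, at ratios of 3.75 (1.64 to 9.62) and 25.2 (4.05 to 1042) against β-Gal.

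None of the 18 listed sensors passed the filter. Aim2, which senses cytosolic DNA, had 2, 5 and 2 reads, Nlrc4, which acts with the NAIP receptors of bacterial proteins, had 1, 0 and 2, and Nlrp1b had 1, 0 and 0. The interleukin-1 genes were also near the limit of detection, with 22, 14 and 13 reads for Il1a and 4, 1 and 5 for Il1b. The interleukin-1 receptor gene Il1r1 was, by contrast, abundant, at 219, 142 and 182 FPKM, and is named after its values were seen. It was 1.55-fold lower in NIK than the control (1.5 to 1.59).

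Transcripts of several proteins that act around NLRP3 and gasdermin D were present in every library, some higher and some lower in NIK. Nek7, the kinase that NLRP3 needs for assembly, was at 9.73, 12.8 and 10.4 FPKM, 1.31 times as high in NIK as in β-Gal (1.18 to 1.45). Txnip, whose product can bind NLRP3, was chosen with its values in view and was at 36.9, 19.8 and 40.6 FPKM. It was 1.86-fold lower in NIK than the control (1.65 to 2.10) and 2.05-fold lower than in NIK(KA) (1.82 to 2.31). Gsdme, another pore-forming gasdermin, was at 2.08, 2.25 and 2.12 FPKM, a ratio of 1.08 (0.815 to 1.43) whose interval includes 1. Ninj1, whose product ruptures the plasma membrane after the pores form, was at 55.1, 104 and 67.2 FPKM. It was 1.89-fold higher in NIK than the control (1.74 to 2.05), just short of the 2-fold rule at a log2 difference of 0.91. Gsdma, a gasdermin gene of skin and gut, was at 2.44, 0.803 and 1.94 FPKM and is named after its values were seen. It was 3.04-fold lower in NIK (2.06 to 4.58), a log2 difference of -0.93 that misses the rule with a pseudocount of 1. In NIK against NIK(KA) again 2 of the 13 genes were called higher and 0 lower, where 5.07% and 1.10% of all genes were. The median was 0.06 beside -0.03 over all genes. In NIK(KA) against β-Gal no gene of this list was called, and the median was 0.08 beside 0.01.

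Of the 32 other necroptosis genes listed, 28 passed the filter, where 12951 of the 26584 genes detected in the series did. This share depends on the choice of genes, since the list holds abundant ones such as Hsp90ab1, at 2433 FPKM in β-Gal. Of the 28, 5 were called higher and 0 lower when NIK was set against β-Gal, where 5.14% and 1.48% of all genes were. The median of the 28 was 0.25 beside -0.02 over all genes. Like Casp4, Fas, Birc3 and Ikbke passed the filter through NIK alone. Ikbke, a kinase of the IKK family that can phosphorylate RIPK1, was at 0.427, 28.2 and 0.477 FPKM, 66.2-fold higher in NIK than the control (41.1 to 114). The death receptor gene Fas had 1, 143 and 3 reads, a ratio of 172 (30.3 to 6825). The other 3 encode ubiquitin enzymes that control RIPK1. Birc3, for the ligase cIAP2, had 0, 202 and 0 reads and was at least 80.8-fold higher, with an exact lower limit of 65.1. Tnfaip3, for A20, was 13.3-fold higher (10.4 to 17.3), and Birc2, for cIAP1, 2.13-fold (1.99 to 2.28).

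The partners of caspase-8 showed smaller differences. Cflar, which encodes the catalytically inactive homologue c-FLIP, was at 23.2, 43.2 and 17.6 FPKM. It was 1.86-fold higher in NIK than the control (1.70 to 2.04), a log2 difference of 0.87. Against NIK(KA) it was 2.45-fold higher (2.21 to 2.72), which made it the additional gene among the 6 of this list called higher in that comparison. Fadd, the adaptor that recruits caspase-8, was at 5.03, 6.97 and 4.45 FPKM, 1.38-fold higher in NIK than the control (1.20 to 1.60). Cyld, a deubiquitinase that frees RIPK1, was at 12.4, 19.5 and 13.2 FPKM, 1.57-fold higher (1.46 to 1.70). Zbp1, a nucleic acid sensor that can engage RIPK3, had 0, 10 and 2 reads, at least 4.0-fold higher in NIK than the control, with an exact lower limit of 2.69. In NIK against NIK(KA), where 5.07% of all genes were called higher and 1.10% lower, 0 genes of the list were lower. The median of the list there was 0.15. In NIK(KA) against β-Gal no gene of the list was called in either direction, with a median of 0.07.

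**Figure D4:**
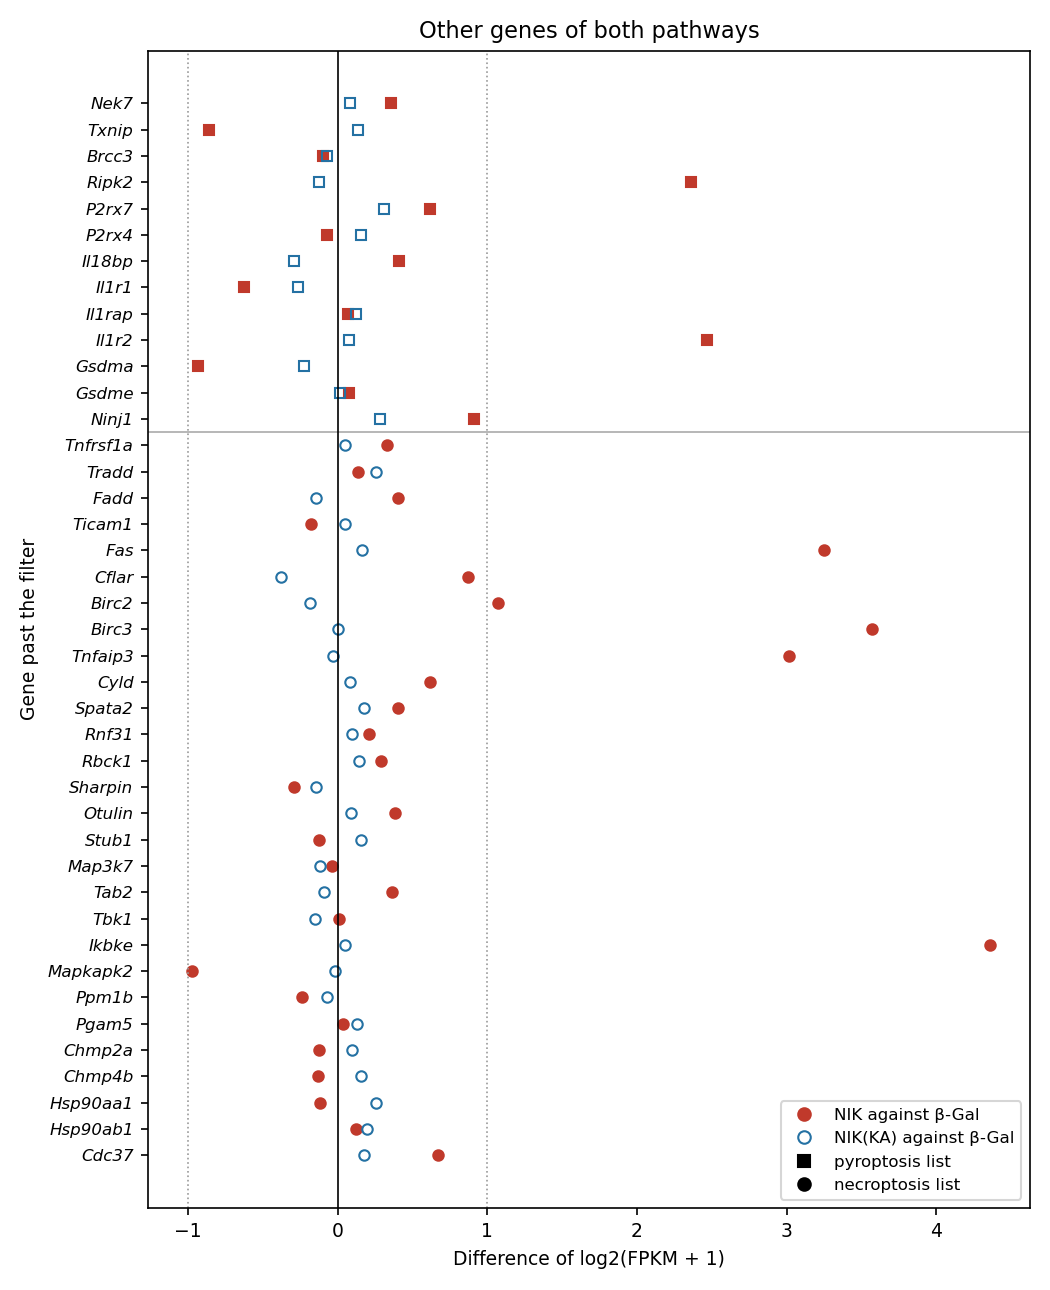
Difference of log2(FPKM + 1) for the 13 other pyroptosis genes (squares) and 28 other necroptosis genes (circles) past the filter, filled for NIK against β-Gal and open for NIK(KA) against β-Gal, which share the β-Gal library. Dotted lines mark differences of 1 in either direction. Ripk2, Il1r2, Fas, Birc2, Birc3, Tnfaip3 and Ikbke lie to the right of the line for NIK, and no open symbol lies beyond either line.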

How the data were processed

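RNA of 3 libraries of αTC1-6 cells, 1 per group, was sequenced. The deposited values are FPKM per gene ID. TopHat2, HTSeq 0.6.1 and the GRCm38 build are named, per the submitters' processing notes, without their roles. The annotation release and strand setting were not given in the sources. Gene IDs were matched to GENCODE M21 on GRCm38 (52489 of 52948), and all 10 genes matched.

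Each FPKM value is a multiple of the step that a single read makes in its gene and library. From this, library totals and whole reads, within 0.0001 of a read, were recovered for 26537 of 26584 detected genes, with the length nearest to the GENCODE mean where several were possible. On simulated data of NIK against β-Gal, exact reads were recovered for 99.7% of 25149 genes. The simulation took its gene lengths and library totals from this same recovery, so it cannot check those behind the deposited values. The recovered reads serve for exact 95% intervals (Poisson for levels, conditional binomial for ratios) and not for a count model. No molecular identifiers are mentioned, so reads may repeat a molecule, and intervals cover counting error only.

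Differences are of log2(FPKM + 1) computed from the deposited values, called at 1 or more among genes averaging 1 FPKM or more, and a pseudocount of 1 understates those of low genes. Map3k14 was left out of counts over all genes. The members, lists and rules were chosen with earlier results of these data known. Genes named are the 10 members, list genes past the 2-fold rule in NIK against β-Gal (up to 8 per list) and a set given by name, with the 3 coding genes nearest to a called member; others are marked, and some of the set are not reported here. Promoters are from RefSeq. Alternatives changed the pseudocount, filter, scaling and call. Python 3.11.15, pandas 2.3.3, NumPy 2.4.6, SciPy 1.17.1 and Matplotlib 3.10.9 were used.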

Additional observations from a re-analysis of the deposited data

How the results depend on the processing

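The count of members called higher in NIK was 1 against β-Gal and 1 against NIK(KA). It was 3 in each with no filter, where 3.33% and 3.20% of all detected genes were called higher, and 2 in each with an equal sum per library (TPM), where 5.96% and 5.79% were. With the rule added after the data were seen, a ratio of reads of at least 2 whose interval excludes 1 and no filter, it was 5 and 5, and 1 in NIK(KA) against β-Gal. By that rule 5 of 48 other pyroptosis genes were higher in NIK against β-Gal and 5 against NIK(KA). In the same order 1 and 3 were lower, and 2 were higher in NIK(KA) against β-Gal. Over all detected genes 6.60% and 5.71% were higher, 2.18% and 2.48% lower, and 2.13% higher in NIK(KA) against β-Gal. Lower genes of the pyroptosis list, 0 as reported, numbered 1 and 2 with a pseudocount of 0.1 and 1 and 1 as TPM. With upper-quartile scaling there was 1 against NIK(KA). Of all genes, 2.76% and 2.36%, 1.97% and 1.66%, and 1.18% were called lower in these settings. Of the other necroptosis genes, 3 instead of 5 were higher against β-Gal with a mean FPKM of at least 5. Of all genes 4.01% were higher there. With upper-quartile scaling 1 necroptosis gene was lower against β-Gal, beside 1.74% of all genes.

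The members' differences stayed within counting error with median-ratio and upper-quartile scaling, and 14, 8 and 5 of 30 left it with a pseudocount of 0.1 or 5 and as TPM. The difference of Casp4 in NIK against β-Gal, 4.83 as reported, ranged from 2.69 with a pseudocount of 5 to 8.10 with 0.1. No called difference changed sign under these alternatives. Depth limits Casp1, Casp12 and Pycard, with at most 25 reads, and the genes at 0. No paired analysis was possible because each group holds 1 library.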
